A study of Triticum aestivum with 18 samples.

Results

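The embryo-like structures (ELS) that formed from microspores of the spring wheat cultivar Nanda were compared with those of Sadash on Day 21 of culture, a contrast named NS_D21 with Sadash as the reference. Nanda is the highly embryogenic genotype of the study and Sadash responds weakly. The 6 Day 21 libraries of the 18 in the series were used, 3 biological replicates of each genotype, and the other 12 held microspores on Day 0 and proembryos on Day 7 of the same 2 cultivars. All 6 came from spikes kept at 4 °C before the microspores were isolated, and each RNA sample was drawn from pooled material in which large and smaller, less developed ELS lay side by side. Transcript counts were summed to 107892 high-confidence genes, of which 62692 passed the filter of at least 1 CPM in at least 1 of the 18 libraries, where 1 CPM is 1 count in 1000000 of the library. The labels name no parent plant or culture behind a replicate, so the p-values measure the spread between these samples.

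A microspore is the young pollen grain. In microspore culture, stress moves some of these cells from the pollen pathway to an embryogenic one, in which they divide inside the pollen wall, burst out as multicellular structures and, with time, acquire an epidermis, a shoot and a root pole and storage reserves. Bread wheat is hexaploid, so that most genes have an A, a B and a D copy, called homoeologs, and 3 such copies form a triad. The chromosome of a gene stands in its identifier, as in TraesCS5A02G391700 on chromosome 5A. Where copies are nearly identical, their reads were divided by the estimation software, and single-copy differences are then uncertain.

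The Day 21 libraries held between 6675332 and 27463367 counts in high-confidence genes, both extremes in Sadash (replicates 2 and 1). Across genes, the Pearson correlation of log2(CPM + 4) was 0.990 to 0.993 between Nanda libraries, 0.974 to 0.984 between Sadash libraries and 0.905 to 0.922 between the genotypes, as a description, since genes are not independent replicates. Among 24149 genes with at least 10 CPM in Sadash, replicate 1 lay at least 2-fold above both other libraries in 789 genes and replicate 3 lay at least 2-fold below both in 869. Results that rest on either are given with their value without it.

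A difference was called at an adjusted p below 0.01 (edgeR's quasi-likelihood test on all 18 libraries, Benjamini-Hochberg adjustment over all tested genes) with an absolute log2 fold change (log2FC) of at least 1. On Day 21, 7873 of 62692 genes (12.6%) were called, 4364 higher in Nanda (6.96%) and 3509 lower (5.60%). Of these, 572 lay on chromosome 1B between TraesCS1B02G000800 and TraesCS1B02G150500, where Sadash has little mapped RNA. In that stretch 728 genes were tested and 78.6% called, 557 higher (76.5%) and 15 lower (2.06%), with a median log2FC of 4.55 among the higher ones. Without them, 7301 of 61964 genes were called (11.8%), 3807 higher (6.14%) and 3494 lower (5.64%), so the share of calls in favour of Nanda went from 55.4% to 52.1%. On other scales the same share was 59.5% with a length correction described below and 75.0% on log2(TPM + 1), where TPM is the length-scaled unit of the second deposited table. The median log2FC of all genes was 0.13 on that TPM scale, and with TMM scaling factors added to it the share was 56.7%.

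Outside the 1B stretch the differences were large in both directions. The median absolute log2FC was 1.92 for the genes higher in Nanda and 1.67 for those lower, and 1814 and 1365 genes, respectively, differed at least 4-fold. At least 16-fold differences were found for 720 higher and 603 lower genes. The libraries of the 2 genotypes did not overlap for 3802 of the higher and 3446 of the lower genes, while 26.5% of all tested genes were without overlap in favour of Nanda and 23.7% in favour of Sadash. In bulk RNA of this kind, fewer cells of a type and less RNA per cell cannot be told apart.

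**Figure D1:**
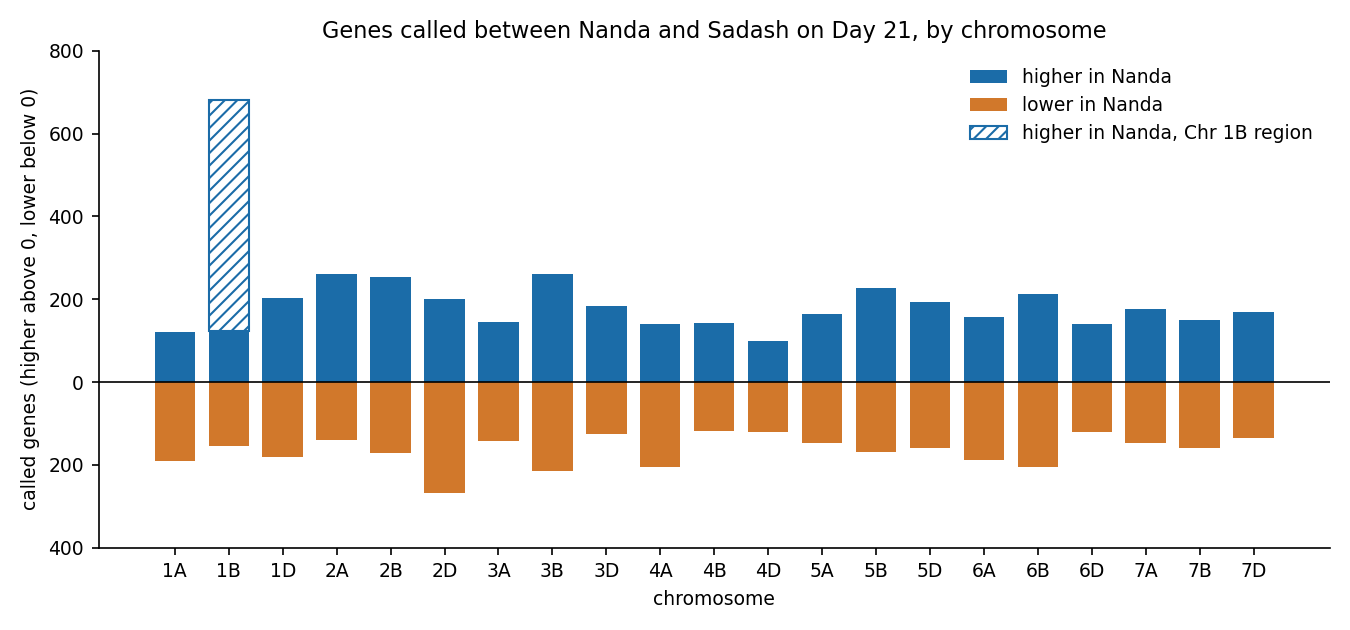
Number of genes called higher (bars above 0) and lower (bars below 0) in Nanda than in Sadash ELS on Day 21, by chromosome, with the 1B stretch that has little mapped Sadash RNA hatched in the higher bar. The stretch adds 557 genes to the 123 higher genes of the rest of chromosome 1B.

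The rest of chromosome 1B resembled the genome, with 123 higher and 140 lower of 2019 tested genes. Outside the stretch the subgenomes had similar counts, 1166 higher and 1157 lower of 20314 in A, 1371 and 1177 of 20010 in B, and 1188 and 1109 of 20812 in D. Further stretches were picked by the study on these same libraries, so their counts are a description. The 1D stretch had 81 genes higher and 3 lower of 167, the 2A stretch 40 and 5 of 127, and the 2D stretch 13 and 68 of 213. On 6B, counted after the data were seen, the stretches listed for Day 21 as higher had 17 and 3 of 89 and those listed as lower 3 and 6 of 11. A 7B stretch, which the study lists for Day 0 and Day 7, had 14 and 13 of 110.

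Descriptions were held only for genes that the study listed as changed between Day 0 and Day 7 in Nanda, and only in part. Rankings of described genes cover no others. Within the 1B stretch, the 3 described genes with the highest Nanda level were a metallothionein, a dehydrogenase and a transporter. TraesCS1B02G042200, annotated as a type-2 metallothionein, a small cysteine-rich protein that binds metal ions, was at 137, 207 and 159 CPM in the Nanda libraries and 4.38, 4.00 and 2.84 CPM in Sadash. The groups lay far apart (log2FC 5.48, SE 0.93, edgeR adjusted p = 0.00026). TraesCS1B02G101100, similar to a rice glucose and ribitol dehydrogenase, was at 105, 205 and 185 against 4.72, 3.15 and 3.26 CPM (log2FC 5.42, adjusted p = 0.00018). TraesCS1B02G099000, an ABCB-type membrane transporter, was at 103, 110 and 116 against 5.71, 7.29 and 9.54 CPM (log2FC 3.87, adjusted p = 4.2e-08). Counts in the stretch were 1.25 to 1.27% of a Nanda library and 0.212 to 0.243% of a Sadash library. In a Nanda library 805 to 828 of the 1481 annotated genes there had a count, and in a Sadash library 458 to 536. Counts assigned to the stretch were thus low in Sadash but not at 0. Reads shared by similar copies are divided between them, so these counts cannot show whether Sadash transcribes the stretch itself.

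Outside the stretch, 41 genes whose Nanda mean reached 10 CPM had no count in any Sadash Day 21 library, and 39 genes of Sadash had none in Nanda. A further 14 of the first kind lay in the 1B stretch, and none of the second kind did. Of the 55 genes without Sadash counts, 27 had no Sadash count on Day 0 or Day 7 either, and of the 39 without Nanda counts, 11 had none at any stage. TraesCS5D02G032100 was at 38.9, 38.9 and 40.9 CPM in Nanda, at least 164-fold higher than a floor of 3 counts per Sadash library. TraesCS1D02G447000 (36.7, 36.1 and 37.9 CPM) and TraesCS7A02G503000 (42.8, 39.1 and 26.8 CPM) were likewise without Sadash counts. In the 1B stretch TraesCS1B02G087300 (64.6, 66.2 and 72.0 CPM) and TraesCS1B02G043600 (40.3, 41.0 and 50.9 CPM) were at least 281-fold and 183-fold higher. In the other direction TraesCS2B02G411600 was at 124, 156 and 156 CPM in Sadash and at 0 in Nanda, at least 799-fold lower. TraesCS4A02G228500 (66.9, 86.9 and 102 CPM in Sadash) and TraesCS6B02G108100 (61.5, 53.2 and 68.0 CPM) were at least 470-fold and 335-fold lower. None of these genes has a description in the tables used here, although TraesCS2B02G411600 carries the term of nucleosome assembly and TraesCS6B02G108100 that of amino acid synthesis. By a count of 0, a gene that is absent, not transcribed or too unlike the reference to map cannot be told apart.

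Among the genes so described that were lower in Nanda outside the stretch, with a Sadash mean of 10 CPM or more, a flowering regulator differed most. Larger differences of genes without a description are given above. TraesCS5A02G391700 is similar to VERNALIZATION 1, a MADS-box transcription factor that promotes the floral transition in cereals after cold. It was at 0.0593, 0.0589 and 0 CPM in Nanda ELS and at 22.3, 23.5 and 21.3 CPM in Sadash ELS (log2FC −8.84, SE 0.32, edgeR adjusted p = 1.5e-12). The naming rule required that the libraries do not overlap. The difference was that of Day 21, for on Day 0 the mean was 60.6 CPM in Nanda and 24.5 CPM in Sadash, and on Day 7 it was 11.9 and 20.6 CPM. The genotype difference on Day 21 differed from that on Day 7 by −8.04 log2 units (SE 0.39, adjusted p = 1.4e-09) and from that on Day 0 by −10.14 (adjusted p = 1.4e-11). Its B copy, TraesCS5B02G396600, singled out after its values were seen, went the other way at a low level, 1.19, 1.77 and 1.84 CPM in Nanda against 0.416, 0.286 and 0.544 CPM in Sadash (log2FC 1.84, adjusted p = 0.00034). The D copy, TraesCS5D02G401500, had no count in any Day 21 library. Sadash ELS thus held transcript mainly assigned to the A copy, and Nanda ELS nearly none of it.

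Other described genes with large differences code for membrane, wall and transcription proteins. TraesCS7A02G169100, similar to WAT1 and UmamiT solute transporters of Arabidopsis, was at 3.38, 2.06 and 1.97 CPM in Nanda and 24.7, 21.3 and 15.3 CPM in Sadash (log2FC −3.04, SE 0.51, adjusted p = 0.00022). TraesCS3B02G520700, an alpha/beta hydrolase-type protein, was at 2.73, 2.71 and 1.84 against 29.9, 27.3 and 16.9 CPM (log2FC −3.34, adjusted p = 6e-05). TraesCS3B02G318300, similar to rice MADS32, a MADS-box factor, was at 4.75, 4.01 and 3.82 against 27.3, 34.2 and 33.6 CPM (log2FC −2.91, adjusted p = 4.1e-05). For all 3, every Nanda library lay below every Sadash library, which the naming rule required. That also holds for the glycine-rich wall protein gene TraesCS6D02G283000 (3.32, 4.07 and 1.91 against 40.8, 39.8 and 14.9 CPM). The latter lost its call when Nanda replicate 1 or 3 was left out.

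Higher in Nanda were 2 consecutively numbered genes of a wound-responsive family, TraesCS2B02G561300 and TraesCS2B02G561400, with 10.1 to 18.3 and 8.84 to 16.5 CPM, respectively, and no count in Sadash (at least 56.7-fold and 50.8-fold). Also higher were 2 genes annotated as the largest subunit of RNA polymerase II, RPB1, the catalytic core of messenger RNA synthesis; other RPB1 genes were not counted. TraesCS2A02G558100 was at 12.8, 13.3 and 12.8 CPM in Nanda and at 0.0756, 0.715 and 0.121 CPM in Sadash (log2FC 6.06, SE 0.30, edgeR adjusted p = 8.3e-11), with 5.37 when Sadash replicate 1 and 7.00 when Sadash replicate 2 was left out. Earlier it had means of 313 and 283 CPM on Day 0 and of 146 and 150 CPM on Day 7. The Day 21 means were 13.0 and 0.304 CPM. TraesCS2D02G427500, on another chromosome, was at 16.8, 19.9 and 22.7 against 3.21, 4.72 and 4.71 CPM (log2FC 2.27, adjusted p = 9.9e-08), after a lower mean in Nanda on Day 7 (15.2 against 49.1 CPM).

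Of the genes called on Day 21, a smaller part was called with the same sign at earlier stages. Among the 4364 higher genes, 1213 were also called higher on Day 7 and 1106 on Day 0, where 6.78% and 5.44% of all genes were. Outside the 1B stretch these were 760 and 671 of 3807, beside 6.04% and 4.68% of all genes there. Among the 3509 lower genes these were 801 and 674, beside 6.03% and 5.12% of all genes. The comparisons have no library in common, although they share the cultivars. A call in the opposite direction on Day 7 was found for 271 of the higher and 383 of the lower genes. A gene was counted as particular to Day 21 where its difference was called on Day 21 and the change from both earlier days was itself called with the same sign. There were 1403 such genes higher in Nanda (2.24% of all tested, 28 of them in the 1B stretch) and 1427 lower (2.28%, 4 in the stretch). The interaction with Day 7 was called for 10158 genes (16.2%) and that with Day 0 for 9312 (14.9%). With the length trend removed the lower count was 703. On log2(TPM + 1) the higher count was 2799 and the lower 814, and on log2(TPM + 0.1) they were 2956 and 815.

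Those Day 21 genes with a description included a component of ethylene signalling and a polymerase subunit. TraesCS4B02G381200, similar to ETHYLENE-INSENSITIVE 2, a central relay of ethylene signalling, was at 18.7, 18.5 and 24.5 CPM in Nanda and 6.27, 3.57 and 4.83 CPM in Sadash (log2FC 2.03, SE 0.28, adjusted p = 2.1e-05). On Day 7 the means were 14.6 and 13.3 CPM. TraesCS3D02G018000, a SIAH-type protein, from a family of ubiquitin ligases, was at 15.0, 12.4 and 11.8 against 0.907, 2.00 and 1.75 CPM (log2FC 3.20, adjusted p = 1.4e-07). TraesCS6B02G315300, similar to subunit 4 of the plant RNA polymerases IV and V, which serve small-RNA-guided DNA methylation, was at 7.77, 9.55 and 8.77 CPM in Nanda and 27.4, 26.6 and 29.2 CPM in Sadash (log2FC −1.67, SE 0.15, adjusted p = 1.5e-07). On Day 7 it had been at 32.9 CPM in Nanda and 21.4 CPM in Sadash. The 3 genes kept their calls without any single library.

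**Figure D2:**
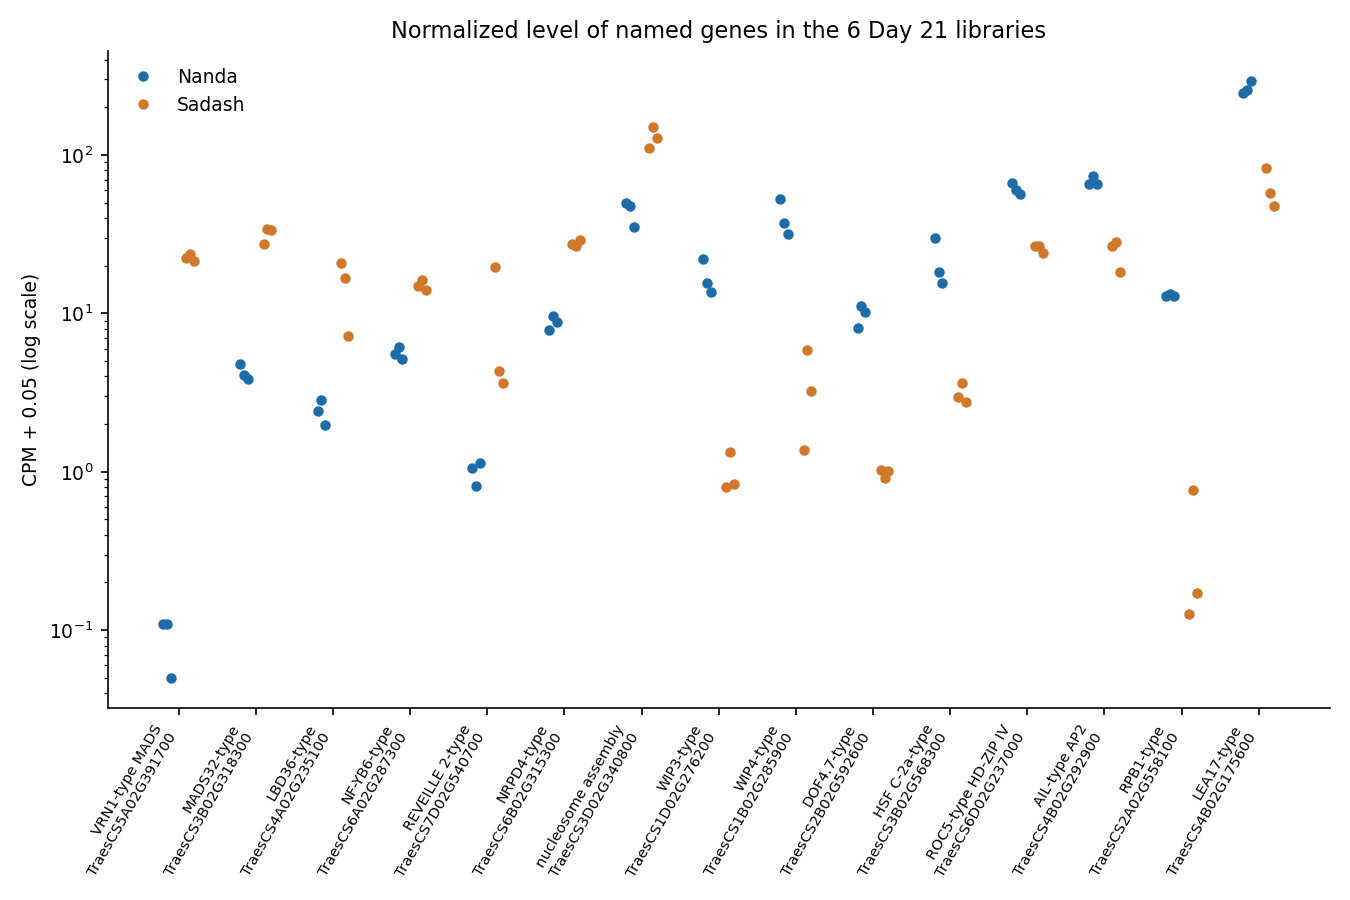
Level of 15 genes in each Day 21 library, as CPM + 0.05 on a logarithmic axis, with 1 point per library and the genotypes side by side. The VERNALIZATION 1-type gene TraesCS5A02G391700 lies near the floor in all 3 Nanda libraries and at 21.3 to 23.5 CPM in Sadash.

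Across all genes, the direction of the difference moved with transcript length. Relative effective length was read from the deposited counts and TPM values, and 31339 genes averaging 5 CPM or more were divided into 10 equal groups. In the shortest group the median log2FC was −0.65, with 3.83% of genes called higher and 29.2% lower in Nanda. In the longest group it was 0.55, with 19.6% higher and 1.6% lower. The order was reversed at the earlier stages, with medians from 0.59 in the shortest to −0.09 in the longest group on Day 7 and from 0.24 to −0.46 on Day 0. All 3 libraries of a genotype shared the trend, as short genes deviated by −0.40 to −0.27 in Nanda and by 0.29 to 0.38 in Sadash from their mean over the 6 libraries. The part of this trend in the results below was not tested. A fit with the length trend of each library removed, chosen after seeing the data, called 4001 genes higher and 2729 lower and shared 5836 of its calls with the fit above. Its counts stand beside a gene group where they differ from those given by at least 1.5 times.

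**Figure D3:**
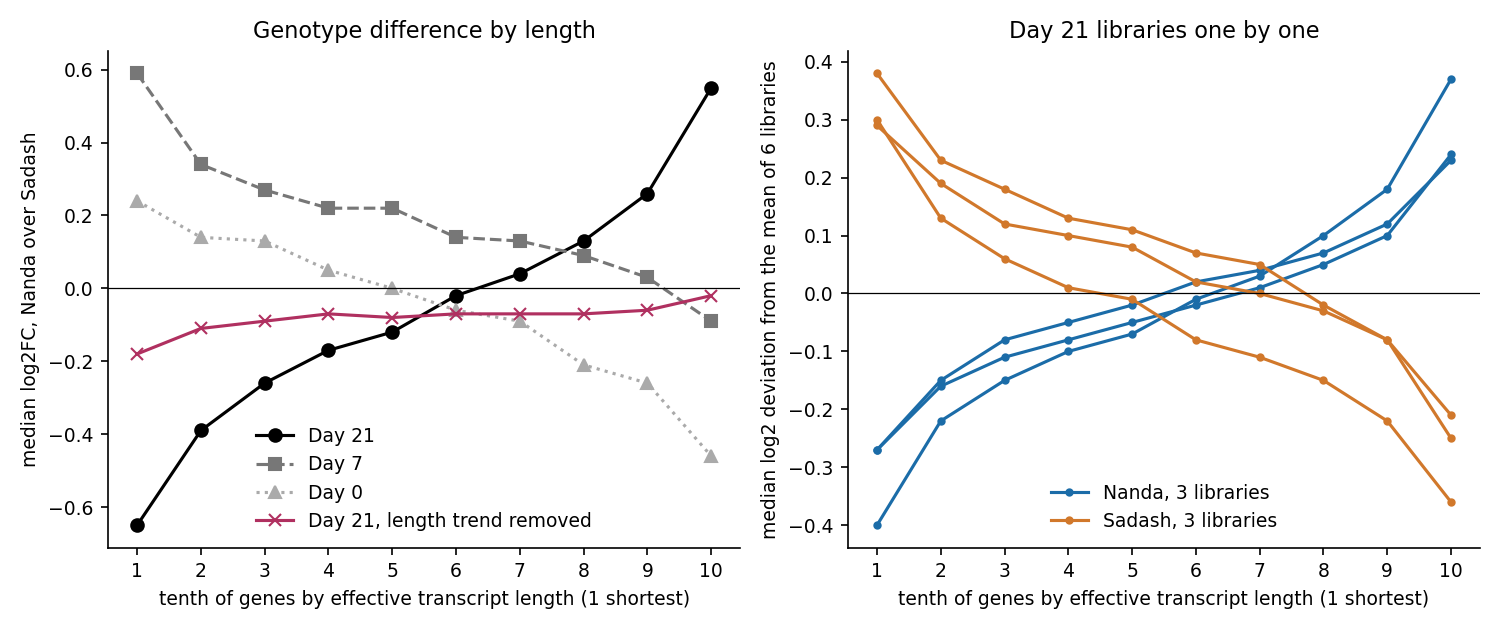
Left, median log2FC of Nanda over Sadash in 10 groups of genes ordered by relative effective length (1 is the shortest), for Day 0, Day 7 and Day 21, and for Day 21 after the trend was removed; right, the median log2 deviation of each Day 21 library from the mean of the 6. On Day 21 the median climbs from −0.65 for the shortest genes to 0.55 for the longest and runs from −0.18 to −0.02 once the trend is removed, and the shortest genes lie below 0 in all 3 Nanda libraries and above 0 in all 3 Sadash libraries.

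Gene groups came from the study's tables of processes and transcription factor families. Of 87 groups, 81 had been chosen on Nanda libraries of Day 0 and Day 7, and 6 on Nanda Day 21 against Day 7, so that the direction of these 6 is in part built in. Groups of a Gene Ontology process held at most 21 genes in the tables used here. Among 1420 distinct tested members, 91 were called higher (6.41%) and 120 lower (8.45%), beside 6.96% and 5.60% of all tested genes. In 20 groups no member was called, and in 32 groups at least 3 were. Medians of a group are set beside the median of genes of like length from the 10 groups above.

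The clearest group was nucleosome assembly, the packing of DNA onto histones. None of its 21 genes was higher in Nanda and 17 were lower, with a median log2FC of −1.79 against −0.65 for genes of like length, of which 27.5% were lower. The summed level was 345, 292 and 227 CPM in the Nanda libraries and 785, 1137 and 978 CPM in the Sadash libraries, so that Nanda held 0.298 of the Sadash sum. In 20 of the 21 genes no Nanda library reached a Sadash library, where 23.7% of all genes were without overlap in this direction. The count stayed at 17 or 18 without any single library and at 17 with the length trend removed. TraesCS6D02G063300 was at 41.7, 33.1 and 26.1 CPM in Nanda and 90.7, 133 and 101 CPM in Sadash (log2FC −1.68, SE 0.20, edgeR adjusted p = 3e-06). TraesCSU02G121200 was at 28.6, 26.3 and 22.0 against 71.4, 109 and 96.4 CPM (log2FC −1.84, adjusted p = 3.1e-06). TraesCS3D02G340800 was at 50.1, 47.5 and 35.3 against 111, 151 and 128 CPM (log2FC −1.55, adjusted p = 5.9e-05), the reverse of Day 7, when Nanda had 67.9 and Sadash 33.4 CPM on average.

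Other DNA- and chromatin-related groups were mixed. Of 20 genes of DNA replication initiation, 3 were lower and 1 higher, the latter (TraesCS1B02G146200) in the 1B stretch, and 19 estimates were negative, with a median of −0.57 beside 0.19 for genes of like length. TraesCS5A02G142600 was at 8.60, 9.37 and 8.20 against 21.3, 17.2 and 20.4 CPM (log2FC −1.17, adjusted p = 0.00016). The lower count was 1 without Nanda replicate 2, Nanda replicate 3 or Sadash replicate 1. Of 21 genes of the mitotic cell cycle 2 were higher and none lower, and with the length trend removed none was higher and 1 was lower. Genes of RNA-directed DNA methylation, by which small RNAs silence repeats, had 4 lower and 1 higher of 21, under the length correction too. TraesCS2B02G473600 was at 2.61, 3.24 and 2.35 CPM in Nanda and 71.6, 62.2 and 65.1 CPM in Sadash (log2FC −4.59, SE 0.31, adjusted p = 4e-09), a difference also present on Day 7 (4.71 and 60.4 CPM). TraesCS2A02G452100 (6.11, 4.42 and 4.83 against 34.3, 28.2 and 40.5 CPM) and TraesCS2B02G105400 (1.60, 2.53 and 2.03 against 14.5, 10.6 and 11.1 CPM) were also lower, and TraesCS3B02G091900 (4.51, 5.66 and 5.21 against 2.38, 2.29 and 1.93 CPM) was higher.

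Groups of ribosome and respiration genes, mostly short, held more genes lower than higher in Nanda. Of 21 genes of cytoplasmic translation 10 were lower and 1 higher (median −0.96, like-length genes −0.65), and of 21 of oxidative phosphorylation 9 were lower and none higher (median −1.09). Of like-length genes 21.7% and 25.8%, respectively, were called lower. Both groups were chosen by the study with the Nanda Day 21 libraries, so their direction is not independent evidence. With the length trend removed the lower counts were 0 and 4, and 1 translation gene stayed higher. Plastid translation, chosen without Day 21, had 5 lower and none higher of 10, 1 to 5 when 1 library was left out (1 without Nanda replicate 2, and 2 without Nanda replicate 3, Sadash replicate 2 or Sadash replicate 3), and with the trend removed none lower and 1 higher. Among the respiration genes TraesCS1D02G263400 was at 64.7, 63.8 and 57.7 CPM in Nanda and 215, 285 and 272 CPM in Sadash (log2FC −2.05, SE 0.14, adjusted p = 3.3e-09), and −1.64 with the trend removed (adjusted p = 5.6e-08). Its A copy, TraesCS1A02G263300, was at 57.4, 62.1 and 48.7 against 169, 219 and 216 CPM (log2FC −1.84, adjusted p = 2.4e-08). No gene of ribosome biogenesis was called.

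**Figure D4:**
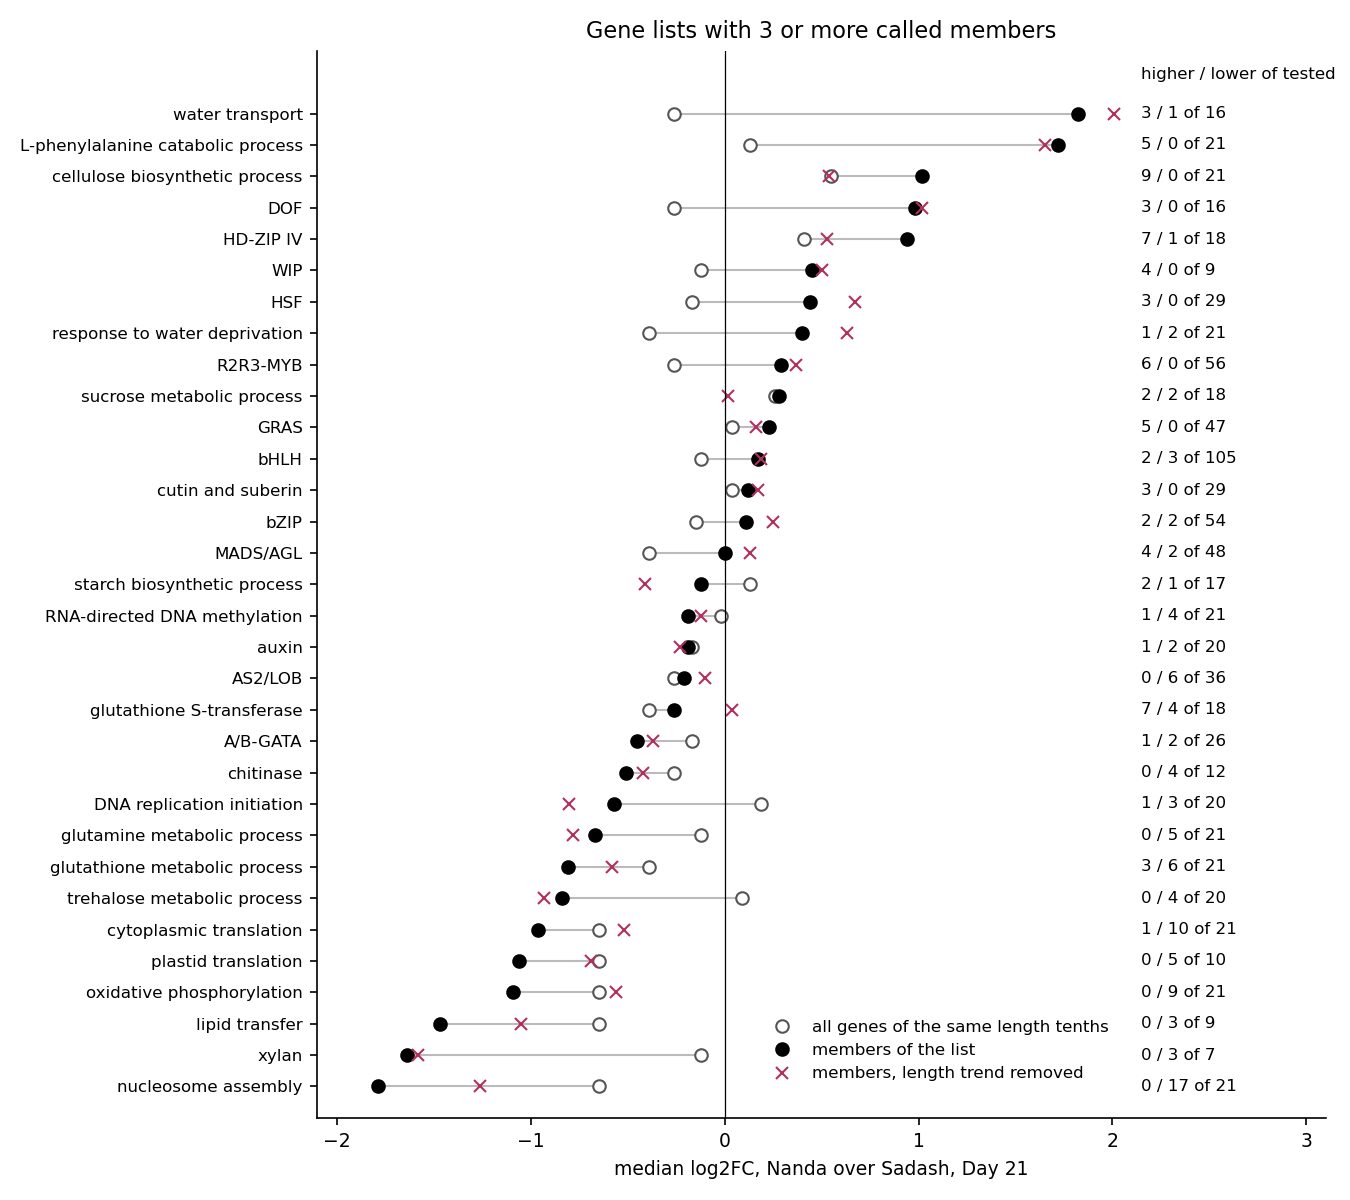
Median log2FC of Nanda over Sadash on Day 21 for the 32 gene groups with at least 3 called members, with filled circles for the members, open circles for all genes of like length and crosses for the members once the length trend was removed. The counts of members called higher and lower, of those tested, stand at the right, and nucleosome assembly lies lowest, at −1.79 with 17 of 21 lower.

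Cellulose is the main load-bearing polymer of the wall. Of 21 genes of its synthesis 9 were higher in Nanda and none lower, 8 of them outside the 1B stretch, with a median log2FC of 1.02, and their summed level was 1302, 1291 and 1301 CPM against 689, 578 and 617 CPM. These are long genes, and those of like length had a median of 0.55 with 15.6% called higher. With the length trend removed 2 remained among the calls, and leaving out 1 library gave 5 to 9, the lowest without Sadash replicate 3. TraesCS7D02G183600 was at 166, 173 and 199 CPM in Nanda and 71.8, 65.4 and 82.6 CPM in Sadash (log2FC 1.29, SE 0.16, adjusted p = 4.9e-06), and 0.46 with the trend removed (adjusted p = 0.025). TraesCS6B02G104600 was at 144, 145 and 151 against 68.4, 53.3 and 69.0 CPM (log2FC 1.20, adjusted p = 5.3e-05), and 0.69 with the trend removed. Genes of xylan, a hemicellulose, went the other way, with 3 lower and none higher of 7 (median −1.64). TraesCS6D02G406800, similar to the rice xylan arabinosyltransferase XAT3, was at 0.0593, 0.295 and 0.127 against 2.72, 3.29 and 2.72 CPM (log2FC −4.09, adjusted p = 0.00041), and −4.84 without Nanda replicate 2. The xylan count was 1 without Nanda replicate 3 or Sadash replicate 1 and 2 with the length trend removed.

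Groups of epidermal and surface genes held calls too. HD-ZIP IV factors, homeobox proteins known for marking the outer cell layer of embryos and shoots, had 7 members higher and 1 lower of 18, with a median log2FC of 0.94 beside 0.41 for genes of like length. Of genes of like length 14.0% were called higher. With the length trend removed 1 HD-ZIP IV factor was higher and 1 lower. TraesCS6D02G237000, similar to rice ROC5, was at 66.8, 59.9 and 57.0 CPM in Nanda and 26.6, 26.7 and 24.0 CPM in Sadash (log2FC 1.25, SE 0.22, edgeR adjusted p = 0.00031), and 0.85 with the trend removed (adjusted p = 0.0088). Its B copy, TraesCS6B02G269700, was at 50.5, 38.7 and 37.8 against 21.8, 18.4 and 16.9 CPM (log2FC 1.15, adjusted p = 4.5e-05). TraesCS5B02G315100, similar to ROC6, was at 8.43, 12.1 and 10.2 against 3.55, 2.57 and 2.05 CPM (log2FC 1.88, adjusted p = 0.00108), after the opposite order on Day 7 (8.31 and 23.4 CPM). TraesCS2D02G473700, similar to ROC2, was the lower one, at 25.5, 27.2 and 24.8 against 65.6, 52.3 and 42.1 CPM, and was not called without Sadash replicate 1 (log2FC −0.86).

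The cuticle group, 29 genes, had 3 higher and none lower, with a median log2FC of 0.12 beside 0.04 for genes of like length, of which 5.98% were higher. TraesCS6D02G369400, of the CER1 type that makes wax alkanes in Arabidopsis, was at 99.3, 84.9 and 71.6 CPM in Nanda and 21.8, 12.2 and 8.40 CPM in Sadash (log2FC 2.57, SE 0.45, adjusted p = 0.00036). The other 2 called members, TraesCS2A02G374100 and TraesCS2A02G407500, lost their calls whichever library was left out. The group then had 1 to 3 members higher, others being gained without Nanda replicate 3 (2 higher) and Sadash replicate 1 (3 higher), and 1 with the length trend removed. Of genes as short as those of lipid transfer proteins, small secreted carriers of lipids, 25.2% were called lower. Of the 9 lipid transfer genes 3 were lower and none higher, with the trend removed too. These 3 are the copies of 1 triad. TraesCS3A02G344700 was at 303, 317 and 252 against 1054, 811 and 547 CPM (log2FC −1.47, SE 0.20, adjusted p = 1.8e-05), TraesCS3D02G338300 at 280, 285 and 231 against 820, 751 and 509 CPM (−1.39), and TraesCS3B02G376700 at 29.3, 35.1 and 24.0 against 164, 144 and 50.0 CPM (−2.02). On Day 7 the A copy had been higher in Nanda (388 against 93.3 CPM). Every Nanda library on Day 21 lay below every Sadash library for all 3 copies.

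The 45 transcription factor families together held 818 tested factors, of which 47 were higher (5.75%) and 32 lower (3.91%). Most families had few calls, so their members are more telling than their counts. WIP-type zinc finger proteins, known in Arabidopsis for roles in root and fruit tissue formation, had 4 of 9 members higher and none lower, with the length trend removed and without any single library as well. TraesCS1B02G285900, similar to WIP4 and outside the 1B stretch, was at 53.0, 37.1 and 31.7 CPM in Nanda and 1.32, 5.86 and 3.20 CPM in Sadash (log2FC 3.69, SE 0.72, edgeR adjusted p = 0.00084). TraesCS3B02G404000, also WIP4-like, was at 31.3, 24.0 and 20.9 against 2.91, 3.00 and 2.17 CPM (log2FC 3.24, adjusted p = 3.5e-07). TraesCS3D02G364800, outside the naming rule and given because the group has 4 calls, was at 11.8, 8.55 and 7.12 against 1.21, 1.00 and 0.181 CPM (log2FC 3.51, and 4.23 without Sadash replicate 1). TraesCS1D02G276200, similar to WIP3, was at 22.0, 15.5 and 13.7 against 0.756, 1.29 and 0.785 CPM (log2FC 4.26, adjusted p = 0.00027). On Day 7 its means were 0.599 CPM in Nanda and 0.613 CPM in Sadash, and on Day 21 they were 17.1 and 0.943 CPM. The summed level of the 9 genes was 167, 130 and 107 CPM in Nanda and 52.2, 50.9 and 39.8 CPM in Sadash.

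DOF zinc finger factors had 3 of 16 higher and none lower, although the count was 2 without Sadash replicate 3 and 1 without each other library in turn. TraesCS2B02G592600, similar to Arabidopsis DOF4.7, was at 8.07, 11.1 and 10.1 against 0.983, 0.858 and 0.966 CPM (log2FC 3.35, SE 0.61, adjusted p = 0.00036) and held in each of those fits. Heat stress factors, which switch on chaperone genes, had 3 of 29 higher and none lower. TraesCS3B02G568300, similar to rice HSF C-2a, was at 29.7, 18.3 and 15.5 against 2.91, 3.57 and 2.72 CPM (log2FC 2.81, adjusted p = 0.00028), and TraesCS5B02G236400, similar to rice HSF B-1, at 7.18, 6.96 and 5.72 against 1.36, 1.14 and 0.785 CPM (log2FC 2.57, adjusted p = 0.00114). The bZIP factors TraesCS6D02G312800 (10.8, 11.6 and 8.27 against 1.70, 3.43 and 1.99 CPM) and TraesCS6B02G364000 (6.65, 8.84 and 7.82 against 1.36, 2.00 and 0.785 CPM), both similar to rice bZIP23, a factor of abscisic acid responses, were higher too, as 2 of 54 members, with 2 others lower (1 with the length trend removed). Further higher genes were TraesCS7B02G115200, an SBP factor at 3.80, 3.01 and 3.31 against 0.454, 0.715 and 0.544 CPM, and TraesCS5D02G158300, a MYB-type factor at 4.92, 5.95 and 5.53 against 0.831, 0.143 and 1.15 CPM. R2R3-MYB factors had 6 of 56 higher and none lower, and 2 to 4 higher when 1 library was left out, the fewest without Nanda replicate 2, and 3 without Sadash replicate 2 or 3.

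Among lower factors the LOB domain family, named for lateral organ boundaries, had 6 of 36 and none higher, with 3 lower without Nanda replicate 2, Nanda replicate 3 or Sadash replicate 1. The 6 were A, B and D copies of 2 genes on group 4 chromosomes. The LBD36-like copies held without any single library, namely TraesCS4A02G235100 at 2.37, 2.77 and 1.91 against 20.8, 16.7 and 7.19 CPM (log2FC −2.66, SE 0.37, edgeR adjusted p = 2.1e-05), TraesCS4B02G079900 at 3.20, 3.06 and 2.67 against 13.5, 10.0 and 5.32 CPM (−1.69) and TraesCS4D02G078800 at 6.94, 7.54 and 5.91 against 26.5, 21.0 and 12.9 CPM (−1.57). The LBD37-like copies did not, and without Sadash replicate 1 the values were −2.09 for TraesCS4D02G077600, −2.25 for TraesCS4A02G236200 and −1.85 for TraesCS4B02G078800 (adjusted p = 0.079, 0.035 and 0.06). The same library decided a REVEILLE-type clock factor, TraesCS7B02G478200, at 3.14, 2.18 and 1.72 CPM in Nanda against 27.1, 6.72 and 4.89 CPM in Sadash, where log2FC went from −2.50 to −1.27 without it (adjusted p = 0.069) and the call was also lost without Nanda replicate 2 or 3. Its D copy, TraesCS7D02G540700, was at 1.01, 0.766 and 1.08 against 19.6, 4.29 and 3.56 CPM, with −3.32 and, without that library, −2.02 (adjusted p = 0.0054). REVEILLE-type factors had 2 lower and none higher of 10, but 1 lower and 2 higher without Sadash replicate 1, 1 lower without Nanda replicate 2 or 3 and 3 lower without Sadash replicate 3. MADS-box factors had 4 higher and 2 lower of 48, and 6 and 2 with the length trend removed. Beside the 2 lower ones above, TraesCS3D02G427700, similar to rice MADS51, was at 8.96, 8.66 and 9.28 against 2.46, 3.57 and 2.36 CPM (log2FC 1.73, adjusted p = 0.00033), and TraesCS3B02G469700 of the same type at 3.62, 2.89 and 4.45 against 0.0378, 0.286 and 0 CPM (log2FC 5.68, and 6.87 without Sadash replicate 2). TraesCS3B02G159100, an HD-ZIP III factor similar to rice HOX29, a family of organ polarity regulators, was lower, at 3.56, 2.71 and 4.26 against 11.9, 12.6 and 10.5 CPM (log2FC −1.73, adjusted p = 8.8e-05).

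Few regulators of embryo identity were called. In Nanda ELS 1 of 3 LEC1-type, 1 of 10 LAV-ABI3 and 1 of 15 WOX genes were lower, and 1 of 30 WRI/AIL genes was higher. Of all tested genes 5.60% were lower and 6.96% higher. Of genes of like length 23.2%, 5.71% and 8.23%, respectively, were lower, and 5.38% were higher for WRI/AIL. The median log2FC of the LEC1-type genes was −1.3, beside −0.65 for genes of like length. LEAFY COTYLEDON 1 (LEC1)-type NF-YB subunits, known from Arabidopsis as promoters of embryo fate, had 3 genes, whose summed level was 13.3, 13.1 and 10.4 CPM in Nanda and 30.3, 34.6 and 26.0 CPM in Sadash. The ratio was 0.405, and the exact permutation p of 0.1 (adjusted 0.183 over the marker groups) is the smallest that 3 against 3 libraries allow. TraesCS6A02G287300 was at 5.52, 6.13 and 5.09 against 14.9, 16.2 and 14.1 CPM (log2FC −1.43, SE 0.24, edgeR adjusted p = 0.00042), and its order was opposite on Day 7 (24.2 and 9.16 CPM). TraesCS6B02G316600 (3.62, 4.01 and 2.03 against 7.79, 9.58 and 6.70 CPM) and TraesCS6D02G268000 (4.21, 2.95 and 3.24 against 7.63, 8.87 and 5.19 CPM) were not called. TraesCS3B02G278000, similar to the rice B3 factor LFL1 of the LAV-ABI3 family, to which the embryo regulators ABI3 and FUSCA3 belong, was at 13.9, 9.67 and 11.3 against 28.6, 25.7 and 29.1 CPM (log2FC −1.26, adjusted p = 0.0002), 1 lower of 10 with none higher. Its value was −0.97 with the length trend removed, so no gene of the family was called. It too had been higher in Nanda on Day 7 (42.0 against 13.0 CPM). TraesCS1A02G399400, similar to Arabidopsis WOX9 and the 1 called gene of 15 WOX factors, was at 1.42, 2.12 and 1.72 against 8.81, 8.44 and 4.05 CPM (log2FC −2.01, adjusted p = 0.00987). It was not called with the replicate number as a block (adjusted p = 0.014) or without Nanda replicate 1, 2 or 3 or Sadash replicate 1 or 2. TraesCS4B02G292900, similar to AINTEGUMENTA-LIKE factors, was the 1 higher gene of 30 in the WRI/AIL group (65.7, 73.6 and 65.2 against 26.5, 28.2 and 18.1 CPM, log2FC 1.50, adjusted p = 0.00821) and lost its call with the block (adjusted p = 0.012) and without each library in turn. Under the length correction neither this gene (adjusted p = 0.015) nor the WOX9-like one (adjusted p = 0.011) was called, and 1 other WOX gene was called higher. No RKD factor was called.

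The labelled stage was checked on markers. The groups of seed storage, late embryogenesis abundant, lipid droplet, male gametophyte and photosynthesis genes came from genes listed as higher on Day 7 than on Day 0 in Nanda. Low Nanda levels of these groups on Day 0 are therefore built in. Seed storage protein genes were high in the ELS of both genotypes. Their summed level was 2293, 1524 and 1845 CPM in Nanda and 2505, 1172 and 1441 CPM in Sadash (exact permutation p = 0.7, two-sided), whereas the means on Day 0 were 0.209 and 0.454 CPM. None of the 8 genes was called. The vicilin-type gene TraesCS5B02G434100 was at 699, 455 and 533 against 773, 503 and 460 CPM. Late embryogenesis abundant proteins and dehydrins, which protect cells from drying, summed to 1199, 1228 and 1324 CPM in Nanda and 914, 592 and 471 CPM in Sadash, a ratio of 1.90 (exact p = 0.1, adjusted 0.183). Of their 11 genes 2 were called higher, and 3 with the length trend removed. TraesCS4B02G175600, similar to rice LEA17, was at 247, 257 and 295 against 82.6, 57.3 and 47.8 CPM (log2FC 2.09, adjusted p = 0.0029), and was not called without Nanda replicate 3, Sadash replicate 2 or Sadash replicate 3. Lipid droplet proteins overlapped, with 573, 701 and 725 against 679, 356 and 381 CPM.

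**Figure D5:**
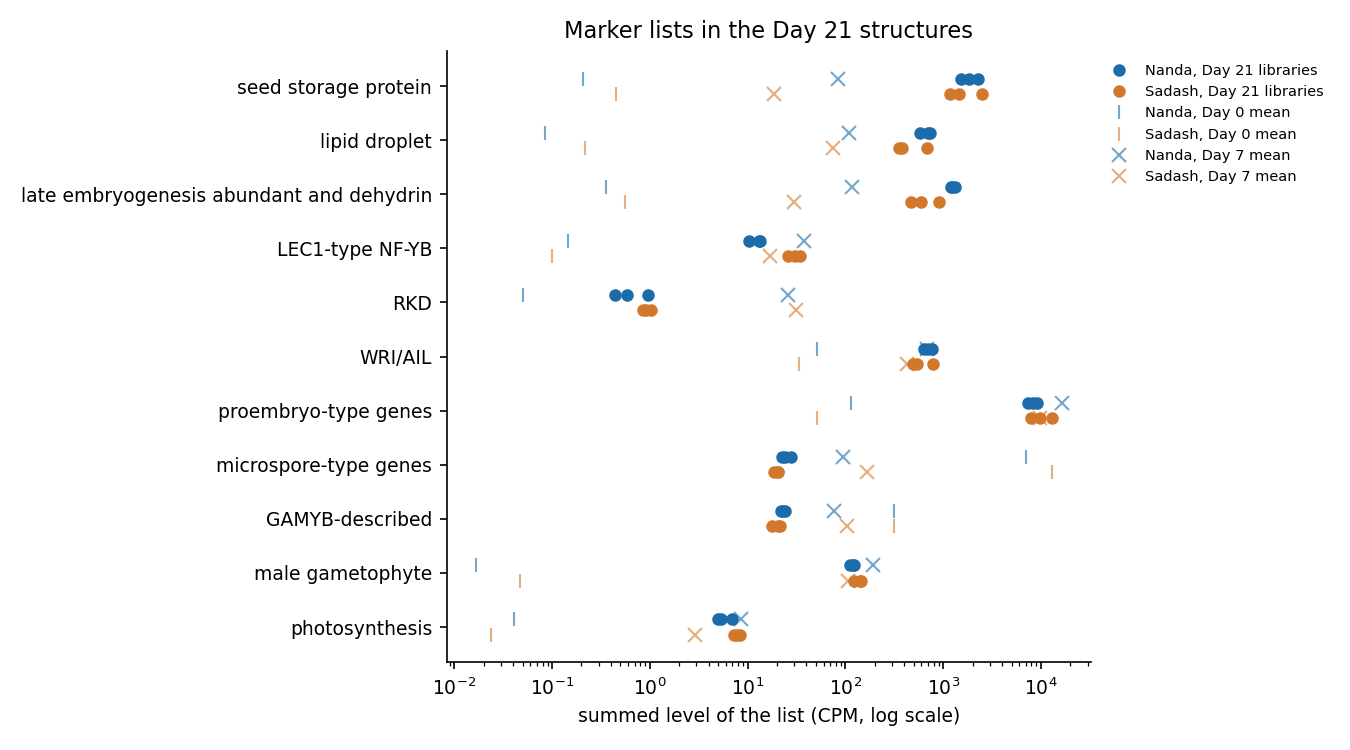
Summed CPM of marker groups on a logarithmic axis, with 1 circle per Day 21 library, and the means of Day 0 (vertical ticks) and Day 7 (crosses) of each cultivar; a mean of 0 is not drawn. On Day 21 seed storage protein genes overlap between the genotypes, from 1524 to 2293 CPM in Nanda and from 1172 to 2505 CPM in Sadash, and the LEC1-type genes do not, with 10.4 to 13.3 against 26.0 to 34.6 CPM.

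Genes typical of microspores were low in both groups of libraries, and those typical of proembryos were not. The 80 microspore-type genes, defined on Day 0 and Day 7 libraries, summed to 22.7 to 27.6 CPM in Nanda and 18.7 to 20.6 CPM in Sadash, against means of 6988 and 12890 CPM on Day 0, and 29 of them were at 0 in all 6 libraries. The 192 proembryo-type genes summed to 9076, 8324 and 7460 CPM in Nanda and 12854, 9860 and 7937 CPM in Sadash (exact p = 0.3), with 14 members higher and 22 lower. These counts were 7 and 29 without Sadash replicate 3, 12 and 13 without Sadash replicate 1, and 13 and 13 without Nanda replicate 3. On Day 7 the order of these sums was opposite (16342 and 9800 CPM). Anther genes of the male gametophyte group summed to 111 to 123 CPM in Nanda and 123 to 144 CPM in Sadash. Their means on Day 0 were 0.0167 and 0.0465 CPM. Since the group holds genes listed as higher on Day 7 than on Day 0 in Nanda, these means cannot show whether anther genes mark microspores. The 3 photosynthesis genes summed to 5.01 to 6.88 CPM in Nanda and 7.26 to 8.40 CPM in Sadash.

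Glutathione S-transferases, which join glutathione to reactive compounds, had 7 higher and 4 lower of 18, and 6 and 4 outside the 1B stretch. These were 8 and 2 with the length trend removed. Their median log2FC was −0.26, beside −0.39 for genes of like length, of which 4.1% were higher and 12.2% lower. The overlapping group of glutathione metabolism had 3 higher and 6 lower of 21 (median −0.81), and 3 and 4 with the trend removed. Its lower count was 3 without Nanda replicate 3 and 9 without Sadash replicate 3. TraesCS4A02G454800, of the tau class, was at 52.7, 41.6 and 37.9 CPM in Nanda and 10.3, 11.6 and 6.40 CPM in Sadash (log2FC 2.24, SE 0.33, edgeR adjusted p = 0.00012). The consecutively numbered TraesCS3A02G309100 (39.3, 45.1 and 37.3 against 14.1, 12.0 and 7.55 CPM) and TraesCS3A02G309000 (40.8, 39.4 and 36.2 against 8.58, 9.72 and 7.49 CPM), of the phi class, were higher too. TraesCS6D02G127800, also tau, was lower, at 59.2, 42.0 and 29.6 against 226, 112 and 73.0 CPM (log2FC −1.65, adjusted p = 0.00068). The higher count of the transferases was 7 without any single library. Their lower count was 1 without Nanda replicate 3 or Sadash replicate 1, 2 without Nanda replicate 2 and 6 without Sadash replicate 3. Glutamine metabolism had 5 lower and none higher of 21, among them the consecutively numbered TraesCS3D02G050100 (2.85, 1.12 and 0.827 against 21.2, 20.7 and 9.79 CPM, log2FC −3.41, and −4.12 without Nanda replicate 1) and TraesCS3D02G050200 (0.237, 0 and 0.254 against 10.3, 3.00 and 3.26 CPM, log2FC −5.11, and −4.21 without Sadash replicate 1).

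Sucrose and starch genes were called in both directions. Of 18 sucrose genes 2 were higher and 2 lower. TraesCS3D02G420300 was at 4.51, 6.01 and 5.47 against 0.491, 0.429 and 0.846 CPM (log2FC 3.13, SE 0.26, adjusted p = 6.3e-08) and TraesCS7D02G036600 at 5.64, 5.72 and 6.23 against 31.1, 18.4 and 26.9 CPM (log2FC −2.13, adjusted p = 8.6e-06). Of 17 starch genes 2 were higher (1 with the length trend removed) and 1 lower, with TraesCS1A02G091500 at 4.09, 5.78 and 6.87 against 0.794, 0.286 and 1.09 CPM and TraesCS2B02G390700 at 6.17, 8.19 and 7.82 against 23.7, 17.3 and 17.7 CPM. A group 1 triad at higher levels, given below, also carries starch terms but is not in this group, and all its copies were higher in Nanda. Trehalose genes, which make a signalling disaccharide, had 4 lower and none higher of 20, and 4 or 5 lower without any single library. The length correction left 5 lower and 1 higher. The group was chosen with Nanda Day 21 libraries, which is not independent evidence of its direction. TraesCS1A02G338200 was at 9.91, 7.66 and 8.33 against 31.3, 19.9 and 17.8 CPM (log2FC −1.42, SE 0.17, adjusted p = 4.5e-06), and its D copy TraesCS1D02G340400 at 10.6, 6.78 and 8.20 against 28.6, 18.3 and 16.7 CPM (−1.33).

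Phenylalanine breakdown, water transport and the response to heat were also chosen with those libraries. Phenylalanine ammonia-lyase, the entry step of phenolic synthesis, belongs to the former, and 5 of its 21 genes were higher and none lower (3 higher outside the 1B stretch), with 3 to 10 higher when 1 library was left out (10 without Sadash replicate 1, 3 without Nanda replicate 1, Nanda replicate 2 or Sadash replicate 2). TraesCS5B02G468400 was at 44.1, 34.0 and 22.1 CPM in Nanda and 0.642, 0.858 and 0.423 CPM in Sadash (log2FC 5.76, SE 0.65, adjusted p = 1e-05). TraesCS1B02G122800, in the 1B stretch, was at 56.1, 58.6 and 36.6 against 0.416, 0.429 and 0 CPM (log2FC 7.48, 8.48 without Sadash replicate 1 and 6.88 without Sadash replicate 3). Of 16 water transport genes 3 were higher and 1 lower, and the consecutively numbered TraesCS6A02G405700 and TraesCS6A02G405600 went opposite ways, the first at 2.97, 4.36 and 3.18 against 0.113, 0.143 and 0.242 CPM and the second at 1.19, 1.06 and 1.78 against 10.4, 16.7 and 23.0 CPM (log2FC 4.35 and −3.63, adjusted p = 0.00023 and 3.5e-05). The higher count was 2 without Nanda replicate 1 and 1 without each other library in turn. Of 21 heat genes 1 was lower and none higher, with 2 lower without Nanda replicate 1 or Sadash replicate 1 and none without Sadash replicate 2 or with the length trend removed.

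Of 1967 triads tested, which are part of the triads of the study since its table was held here only in part (1999 triads), 1400 had no called copy, 317 had 1, 136 had 2 and 114 had all 3, where 12.6% of all tested genes were called. In 104 of the 114 the copies shared a direction, 4 higher and 100 lower in Nanda, in triads of whose single copies 2.98% were higher and 12.8% lower. The 100 lower triads had a median relative length of 0.432, against 0.785 for all triads, and with the length trend removed 7 triads were higher and 48 lower in all copies. In 83 triads the B copy alone was higher, 33 of them outside the 1B stretch. Outside the stretch the median share of the A, B and D copy in a triad was 32.4, 31.9 and 35.4% in Nanda and 32.2, 31.8 and 35.9% in Sadash.

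The triads named here were called in all copies and had the highest summed TPM of their direction. Those higher in Nanda included an undescribed one on group 6. The lower ones included the lipid transfer triad above and 1 with terms of protein folding and peptidyl-proline modification. TraesCS6A02G238500 was at 280, 364 and 437 against 150, 107 and 133 CPM (log2FC 1.47, SE 0.20, adjusted p = 1.7e-05). Its copies TraesCS6B02G285900 (274, 334 and 411 against 196, 125 and 156 CPM, log2FC 1.09) and TraesCS6D02G220900 (173, 212 and 269 against 98.9, 64.5 and 85.5 CPM, log2FC 1.39) followed, although the B copy fell to 0.94 without Nanda replicate 3 and 0.95 without Sadash replicate 2. Of a group 1 triad with terms of energy reserve and starch metabolism, TraesCS1A02G419600 was at 83.3, 92.7 and 103 against 33.4, 32.3 and 39.0 CPM (log2FC 1.41), TraesCS1B02G449700 at 133, 149 and 162 against 64.7, 53.3 and 62.9 CPM (1.29) and TraesCS1D02G427400 at 111, 117 and 133 against 42.0, 32.0 and 51.9 CPM (1.51). TraesCS6A02G068900, TraesCS6B02G093100 and TraesCS6D02G066700, which carry the proline term, were at 84.6 to 107, 143 to 174 and 130 to 169 CPM in Nanda and 244 to 343, 588 to 657 and 493 to 625 CPM in Sadash (log2FC −1.54, −1.95 and −1.87). In none of the 3 did the groups overlap, and the values were −1.19, −1.55 and −1.51 with the length trend removed. TraesCS6A02G213700, TraesCS6B02G243700 and TraesCS6D02G196300 had log2FC of −1.68, −1.79 and −1.36. The Nanda libraries of the A copy were at 271 to 335 CPM and those of Sadash at 850 to 1066 CPM. The B and D copies carry terms of pyruvate metabolism and nucleotide breakdown, and the B copy also that of the glycolytic process. The remaining higher triad, TraesCS1A02G324800, TraesCS1B02G337800 and TraesCS1D02G325500, had log2FC of 1.29, 1.38 and 1.21. With the length trend removed these were 0.70, 0.74 and 0.63, below the limit.

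The study's classifier had picked 2 genes on these libraries as marks of genotype, so their values are a description. TraesCS1D02G454400, described there as a histone deacetylase of the HD2 type, was at 256, 252 and 241 CPM in Nanda and 9.71, 10.0 and 9.54 CPM in Sadash on Day 21. TraesCS6A02G408200 was at 0 in all Nanda libraries and 29.2, 26.0 and 32.4 CPM in Sadash, at least 161-fold lower.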

How the data were processed

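RNA was sequenced from 18 pooled samples, 3 replicates of each of 2 cultivars on Day 0, Day 7 and Day 21. Per the labels and the study's methods, the authors used Trimmomatic 0.39 for trimming, STAR 2.7.5a for alignment to the wheat IWGSC genome and RSEM 1.3.3 for transcript abundance, which divides reads shared by similar copies. The authors deposited expected counts, not normalised, and TPM values scaled by effective transcript length. Here both were summed per gene over high-confidence transcripts, the expected counts were rounded, and low-confidence genes (5.14 to 5.83% of Day 21 counts) were left out. Counts were TMM-scaled and fitted with edgeR 4.0.16 (R 4.3.3) over all 18 libraries, 1 level per cultivar and day. Every adjusted p in the text is edgeR's quasi-likelihood test with Benjamini-Hochberg adjustment unless an exact permutation test, two-sided, is named. Levels are TMM-scaled CPM. Alternatives were DESeq2 1.42.0, limma 3.58.1 on log2 TPM, other filters and thresholds, each library left out, the replicate number as a block and, chosen after seeing the data, removal of each library's length trend (lowess, span 0.3).

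Same-numbered Day 21 libraries of the cultivars deviated from their group means together (r = 0.166, 0.163 and 0.402 for replicates 1, 2 and 3, all above 0.1). Nanda replicate 1 and Sadash replicate 2 also reached 0.114, and no source names a shared batch. Pairing by the shared numbers was used only in an alternative fit, with the replicate number as a block. The counts and p-values above ignore it unless the block is named. On simulated data for this comparison (54014 genes tested) the fit called 9 of 50 genes changed 2-fold, 27 of 50 at 4-fold, 41 of 50 at 8-fold and 46 of 50 at 16-fold, all in the right direction, and 1 unchanged gene. A 2-fold change lies at the fold limit itself. The simulated libraries shared 1 mean per gene apart from the set changes, had no length trend or pairing and left out genes with few counts. The 1 false call therefore does not cover those features of the data.

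The genes named in the text come from a fixed rule. Outside the 1B stretch these are, per direction, the 5 described and 3 undescribed called genes with the largest absolute log2FC, a mean of at least 10 CPM in the higher cultivar and the same direction in all 9 library pairs. They also are, per group and direction, up to 3 called members with the highest mean (the highest member where none was called), the 3 described genes of the stretch with the highest Nanda mean, 5 described Day 21 genes per direction, the 3 triads per direction with the highest summed TPM, the 3 highest genes per cultivar without counts in the other, and 2 genes of the study's classifier. The text gives those that a result turns on, and says where a gene falls outside the rule. Members, groups and rules were chosen with earlier results of these data known. No gene positions or sequences were used here, since none of the identifiers matched the reference table at hand.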

Additional observations from a re-analysis of the deposited data

Results flagged for a closer look

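The 10 genes below are the described Day 21 genes of the naming rule. They were chosen among genes whose interaction with Day 7 was called (edgeR), so that call is built in. It was called for 10158 of 62692 tested genes (16.2%). Each gene is given with the change in its log2FC of Nanda over Sadash from Day 7 to Day 21. This change was 6.1 for TraesCS2A02G558100 and 3.96 for TraesCS2D02G427500, both annotated as RPB1, 3.86 for the SIAH-type TraesCS3D02G018000, 3.37 for the ROC6-like TraesCS5B02G315100 and 1.9 for the ETHYLENE-INSENSITIVE 2-like TraesCS4B02G381200. It was −8.04 for the VERNALIZATION 1-like TraesCS5A02G391700, −4.26 for the REVEILLE-type TraesCS7B02G478200, −3.94 for the glutathione S-transferase TraesCS6D02G127800, −2.3 for TraesCS6B02G315300, a subunit of RNA polymerases IV and V, and −2.03 for TraesCS7A02G239500, an NF-YC subunit at 6.05, 7.01 and 6.10 against 21.5, 13.2 and 10.9 CPM on Day 21 that lost its Day 21 call without Nanda replicate 1, Nanda replicate 3 or Sadash replicate 1.

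Low-confidence gene models, outside every comparison above, held up to 5.83% of the counts of a Day 21 library.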

How the results depend on the processing

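No called gene chosen by the naming rule changed direction under the alternatives run (other genes were not checked), and where counts moved the cause was not tested. With the length trend of each library removed, 6081 genes were called in the interaction with Day 0, 703 Day 21 genes were lower, and 55 triads had all copies in 1 direction. With limma on log2(TPM + 0.1), 6801 genes were higher and 2319 lower (6228 and 2307 outside the 1B stretch), the Day 21 genes numbered 2956 and 815, such triads 48, and group members called lower 71. On log2(TPM + 1), 1872 genes were lower (1863 outside the stretch), the Day 21 genes numbered 2799 and 814, such triads 57, and group members 173 higher and 62 lower. With the 6 Day 21 libraries alone 137 group members were higher. At an adjusted p below 0.05 with no limit on the fold, 9575 genes were higher and 9530 lower (8983 and 9512 outside the stretch), and at an absolute log2FC of at least 2 these were 2323 and 1376 (1814 and 1365). On summed TPM the log2 ratio of Nanda to Sadash was −1.01 for the LEC1-type genes, 0.43 for GAMYB-like genes and −0.18 for photosynthesis genes. At a mean of at least 5 CPM, 111 genes lacked Sadash counts and 82 lacked Nanda counts. By shares of CPM, the B copy differed by −0.237 percentage points outside the stretch (0.0427 by TPM, an uncalled value) and by 26.9 in it. Leaving out 1 library gave 3401 to 3708 genes higher and 2652 to 3379 lower, 2902 to 3191 and 2642 to 3366 outside the stretch, and 79 (without Nanda replicate 3) to 126 group members lower. With the replicate number as a block, 4014 genes were higher and 3326 lower, 7244 of them among the 7873 calls. Apart from the WOX9-like and AINTEGUMENTA-LIKE genes the block changed the call of no other gene named above. With it R2R3-MYB factors went from 6 to 4 higher and heat stress factors and water transport from 3 to 2 higher. Xylan genes went from 3 to 2 lower, glutathione S-transferases from 4 to 3 lower and glutamine metabolism from 5 to 4 lower. In fits of single genes chosen by the naming rule, 3129 kept their side of the threshold and 524 lost a call. The depth of Sadash replicate 2, 6675332 counts, limits what low genes can show.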
